A study of Caenorhabditis elegans with 16 samples.

Results

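The untreated control libraries of a Caenorhabditis elegans feeding study were described here, and no treatment was tested against them. Described were the genes and gene families that made up the RNA, the tissues that markers pointed to, and the genes that differed between replicates. Chosen by their sample titles alone, the controls were 4 of the 16 polyA RNA sequencing libraries of the study, and all 4 were used. Whole animals of strain SS104 were used. The strain has the temperature-sensitive mutation glp-4(bn2). It was kept at 15 °C, and larvae at the L2/L3 stage were shifted to 24 °C, which makes the adults sterile. They were picked onto assay plates as L4 larvae on day 0, fed Escherichia coli OP50, and harvested on day 3 of adulthood. The other 12 libraries came from worms of the same strain and age whose bacterial lawns held 5 mg/mL curcumin phytosome, 0.625 mg/mL sulforaphane, or both at these doses, with 4 libraries each. All groups share the mutation, and no wild-type library was part of the analysis, so no level given here can be set against a worm with a normal germline. The labels name no vehicle for the controls. They call the 4 controls independent replicates, and do not say how many worms went into each.

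An adult worm of this kind is made of somatic tissues whose cells no longer divide. The intestine is the largest of them: it digests bacteria, stores fat, secretes antimicrobial proteins and makes the yolk proteins that oocytes normally take up. The hypodermis makes the collagens of the cuticle, chiefly around each moult, and in glp-4(bn2) animals raised at the restrictive temperature the germ cells arrest early, so that a few undifferentiated germ cells can remain while sperm, oocytes and embryos are normally not made.

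Each control library held between 14960535 and 15720697 counted reads, with an SD of 373805 over the 4, and between 18652 and 19027 genes had at least 1 read. Levels are given as the authors' FPKM, read counts divided by gene length and library depth, which allow genes of different length to be compared. A mean FPKM of at least 1 was reached by 13267 genes, among them 12205 of 19994 protein-coding genes (61.0%). In contrast, 1805 protein-coding genes (9.03%) had no read in any control, and 0 counts in a library allow a level of up to 0.191 to 0.201 CPM, the count scaled to a common library size, by counting error. The targeted gene, glp-4, was present at 26.7, 28.8, 30.4 and 31.1 FPKM in controls 1 to 4 (29.3 ± 1.95, SD, n = 4; rank 2787). The bn2 allele is a point mutation, so this level does not check the genotype. RNA of the ribosomal genes took between 1.60% of the counts in control 4 and 2.81% in control 2.

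A small number of transcripts made up most of the RNA. The 10 highest genes held 14.9% ± 0.501 of all FPKM (SD, n = 4), the 100 highest held 37.02% ± 0.577 and the 1000 highest 73.1% ± 0.485. Between 208 and 222 genes together held 50% of the FPKM of a library. The 100 highest protein-coding genes were short, with a median length of 772.5 bases against 1368 bases for all protein-coding genes at an FPKM of at least 1. By family name, 54 of these 100 belonged to one of 43 gene families. How many of all protein-coding genes belong to the 43 families was not counted, so the 54 has no background here. Ribosomal proteins were encoded by 25 of the 100, from a family of 81 among 19994 protein-coding genes.

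The highest transcript of all was lys-7 (chromosome V, 3481432 to 3482600 on WBcel235, minus strand), which encodes a lysozyme, an enzyme that breaks bacterial cell walls. Its level was 20618, 23169, 20596 and 18986 FPKM in controls 1 to 4 (20842 ± 1729, SD, n = 4). Control 2 was the highest and control 4 the lowest, and every one of the 4 values was above every value of the gene ranked second. A further lysozyme, lys-1, was ranked 25th of the genes of at least 300 bases, at 2196 ± 189 FPKM (SD, n = 4).

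The next places were taken by yolk proteins. The vitellogenin gene vit-5 (chromosome X, 3403471 to 3408603, plus strand) had 14174, 14621, 15022 and 14448 FPKM in controls 1 to 4. Its mean was 14566 ± 355 FPKM (SD, n = 4), and its spread on the CPM scale was 2.57% of the mean. The gene vit-6 on chromosome IV averaged 12170 ± 498 FPKM and vit-2 on chromosome X 10376 ± 274 FPKM (SD, n = 4 each). The other members were far lower, at 446 ± 37.9 FPKM for vit-1, 305 ± 6.96 FPKM for vit-3 and 525 ± 28.5 FPKM for vit-4 (SD, n = 4 each). So 3 of the 6 vitellogenin genes carried nearly all of the family's signal. The genes vit-3, vit-4 and vit-5 are close copies of one another, and how the reads they share were divided is uncertain.

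Secreted carriers of lipids and other small molecules followed. The gene far-2 (chromosome III, 9081828 to 9082511), which encodes a secreted fatty acid and retinol binding protein, was measured at 12663, 11412, 11348 and 11638 FPKM in controls 1 to 4 (11765 ± 611, SD, n = 4). Its range overlapped that of vit-6, and far-2 was the lower of the pair in 2 of the 4 libraries. Its neighbour on the opposite strand, far-1 (chromosome III, 9080371 to 9081179), was at 2028 ± 71.8 FPKM. The transthyretin-related gene ttr-51 was at 4637 ± 394 FPKM (SD, n = 4).

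Digestive enzymes and immune effectors formed another group among the highest genes. The aspartyl protease gene asp-6 had 5265, 6125, 5323 and 4699 FPKM in controls 1 to 4 (5353 ± 587, SD, n = 4). The saposin-like gene spp-5, of a family of pore-forming antimicrobial peptides, averaged 4057 ± 408 FPKM, and F55G11.4, which encodes a CUB-like domain protein, 4787 ± 528 FPKM (SD, n = 4 each). A cathepsin A-type carboxypeptidase gene, ctsa-1.1, had 2309 ± 64.1 FPKM (SD, n = 4). The ranges of asp-6 and F55G11.4 overlapped, as did those of F55G11.4 and fat-2, so their order is not settled by these libraries. All 3 of lys-7, asp-6 and F55G11.4 were highest in control 2 and lowest in control 4.

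Enzymes of fatty acid desaturation stood among the same 25 genes. The gene fat-2, which encodes the desaturase that makes linoleic acid from oleic acid, had 5081, 4890, 4514 and 4373 FPKM in controls 1 to 4 (4714 ± 328, SD, n = 4). The gene fat-6, a stearoyl-CoA desaturase gene, had 2908, 2553, 2167 and 1969 FPKM (2399 ± 417, SD, n = 4). Both were highest in control 1 and lowest in control 4. In comparison fat-1, whose product makes omega-3 fatty acids, was among the steadiest of the highest genes, at 2210 ± 41.4 FPKM (SD, n = 4).

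A pair of adjacent genes for eggshell proteins was also near the top, although these worms are sterile. The genes perm-4 (chromosome IV, 1121494 to 1125107, minus strand) and perm-2 (chromosome IV, 1126790 to 1128865, plus strand) are named for the permeable eggshell that results when they are lost. The gene perm-4 had 6082, 6508, 6239 and 6550 FPKM in controls 1 to 4, and perm-2 had 4059, 4010, 3899 and 3972 FPKM. Their spread between libraries was small, at 3.62% and 1.49% of the mean on the CPM scale. Another gene named after the reproductive tract, ule-4 (uterine lumen expressed), averaged 2567 ± 150 FPKM (SD, n = 4).

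The remaining genes of the 25 were eef-1A.1, which encodes a translation elongation factor (3241 ± 47.8 FPKM), the mitochondrial gene COX1 (2294 ± 176 FPKM), and dod-6, a gene named as downstream of the transcription factor DAF-16 (2278 ± 79.5 FPKM; SD, n = 4 each). The gene eef-1A.1 has a near-identical copy, eef-1A.2, and how the reads they share were divided is uncertain. Among the genes with no given name, C17F4.7 was the highest, at 10070, 9709, 8574 and 7578 FPKM in controls 1 to 4. K06G5.1, C10G8.4 and F45D3.4 lay between 2220 and 2935 FPKM. Protein-coding genes described only as uncharacterized held 16.9% ± 0.369 of all FPKM (SD, n = 4), while they make up 33.7% of protein-coding genes. The 5 genes that came next were C50F7.5, far-1, rla-0 (a protein of the ribosomal stalk), M28.10 and brp-1, all between 1972 and 2176 FPKM.

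**Figure D1:**
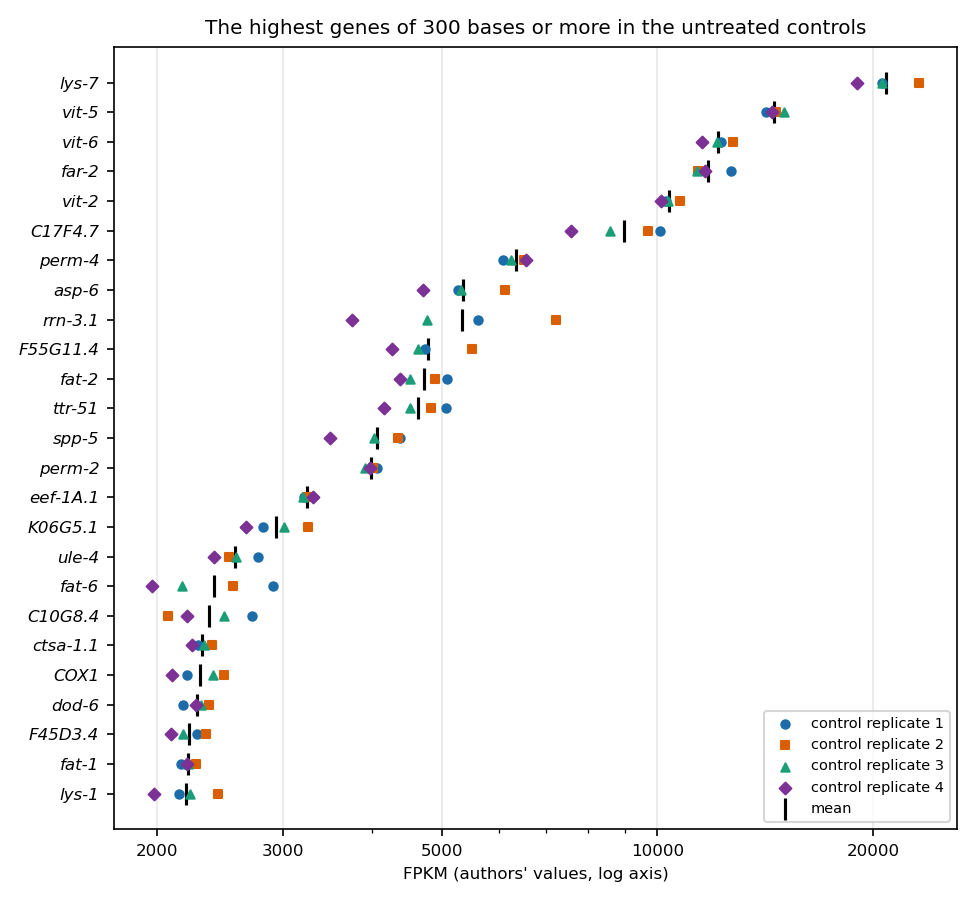
FPKM of the 25 highest genes of at least 300 bases (vertical axis, highest at the top) in the 4 untreated control libraries, on a log axis, with 1 symbol per library and a bar at the mean. The gene lys-7 stands at the top at 18986 to 23169 FPKM, apart from vit-5, while from perm-4 down to perm-2 the ranges of neighbouring genes overlap.

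Of the 24 pairs of neighbours in this ranking, the ranges did not overlap between lys-7 and vit-5, vit-5 and vit-6, far-2 and vit-2, vit-2 and C17F4.7, C17F4.7 and perm-4, and perm-2 and eef-1A.1. All other neighbours overlapped. The order within them should be read as approximate.

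RNA outside protein-coding genes was a minor part of these polyA libraries, where protein-coding genes held 97.4% ± 0.251 of all FPKM (SD, n = 4). The ribosomal RNA gene rrn-3.1 had 5617, 7216, 4765 and 3743 FPKM in controls 1 to 4 (5335 ± 1469, SD, n = 4), the widest spread of the 25 highest genes. It is 1 of several near-identical copies, so its share of their reads is uncertain. The long noncoding RNA tts-1 was measured at 1605, 1587, 1479 and 1315 FPKM (1497 ± 133, SD, n = 4; rank 54 of all genes). The long noncoding RNA lep-5 averaged 214 ± 12.8 FPKM (SD, n = 4).

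Counted by family, ribosomal proteins and yolk proteins led, and which was first depended on the scale. The 81 cytosolic ribosomal protein genes held 9.92%, 9.56%, 10.3% and 10.98% of all FPKM in controls 1 to 4 (10.2% ± 0.602, SD, n = 4), and 80 of them had a mean FPKM of at least 1. Their median member was at 858 FPKM. The 6 vitellogenins held 5.45%, 5.70%, 5.81% and 5.76% of FPKM (5.68% ± 0.160, SD, n = 4). Because the vitellogenin genes are long, they took 19.6% ± 0.383 of the counted reads, against 4.36% ± 0.266 for the ribosomal proteins (SD, n = 4 each). A share of FPKM counts transcripts and a share of counts weighs them by their length.

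Families of the gut lumen and of lipid handling came next. Lysozymes held 3.76% ± 0.238 of FPKM, of which lys-7 alone made 81.9%. The fatty acid and retinol binding family held 2.35% ± 0.107, with far-2 at 74.1% of it, and the aspartyl proteases 1.83% ± 0.122, with asp-6 at 43.2%. The desaturases held 1.68% ± 0.0798, the transthyretin-related family 1.67% ± 0.0899 and the C-type lectins 1.24% ± 0.0432 (SD, n = 4 each). The highest member made 41.4% of the desaturases (fat-2), 40.9% of the transthyretin-related family (ttr-51) and 20.9% of the C-type lectins (clec-63). Among the ribosomal proteins the highest member, rla-0, made 2.94% of the family.

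Saposin-like proteins held 1.15% ± 0.0795 of FPKM, translation elongation factors 1.03% ± 0.0484 and the collagens of the col series 0.800% ± 0.0764 (SD, n = 4 each). Of the 156 col genes, 45 had a mean FPKM of at least 1, and col-122 was the highest at 1069 ± 121.5 FPKM. Subunits of the V-ATPase, the proton pump that acidifies organelles, held 0.530% ± 0.00622, and all 20 were detected at this level. Other neuropeptide-like genes held 0.451% ± 0.0219, led by nlp-77 at 849 ± 101 FPKM, and FMRFamide-like peptides 0.159% ± 0.00924, led by flp-28 at 124 ± 3.27 FPKM (SD, n = 4 each).

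Very large families were detected in small part. Of 1308 chemoreceptor genes, 54 reached a mean FPKM of 1, 436 had no read in any control, and the family held 0.0474% ± 0.00156 of FPKM. Of 322 F-box genes 111 reached 1 FPKM, and of 239 C-type lectin genes 90 did. Nuclear hormone receptors were broader, with 168 of 269 at 1 FPKM, although the highest, nhr-97, was at 95.7 ± 5.42 FPKM. These shares are to be read against the 61.0% of all protein-coding genes that reached this level.

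**Figure D2:**
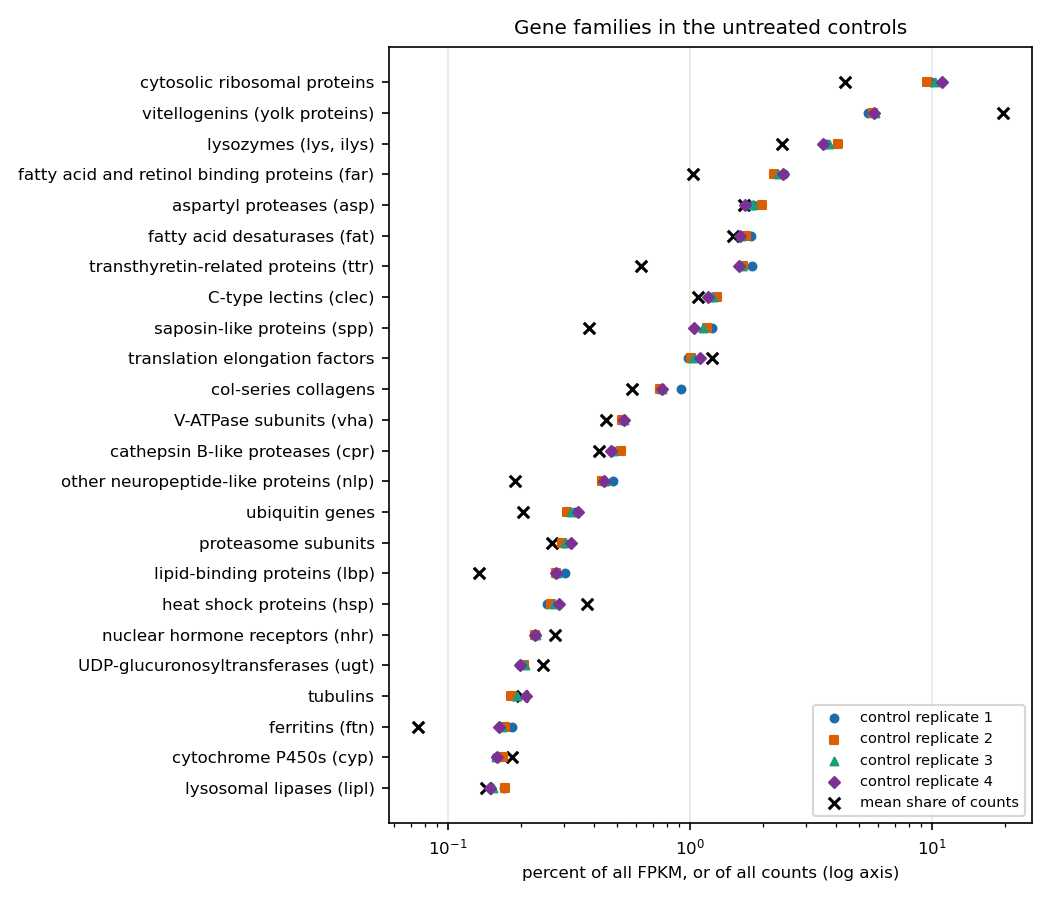
Percent of all FPKM held by the 24 gene families with the largest share (vertical axis) in each of the 4 control libraries, on a log axis, with crosses for the mean percent of counts. Ribosomal proteins lead by FPKM at 9.56% to 10.98%, and vitellogenins lead by counts at 19.6%.

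By protein domain, the von Willebrand factor type D domain, which the leading vitellogenins carry, held the most, at 5.85% ± 0.161 of the FPKM of protein-coding genes. The lipoprotein amino-terminal region of the vitellogenins held 5.84% ± 0.162, the nematode fatty acid and retinoid binding domain 2.41% ± 0.106, the aspartyl protease domain 1.89% ± 0.131 and the transthyretin-like domain 1.72% ± 0.0936. The CUB-like domain, found in many secreted effectors of the immune response, held 1.28% ± 0.124, with 42 of its 49 genes at a mean FPKM of at least 1 (SD, n = 4 each).

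By chromosome, the X carried 25.1% ± 0.293 of the counts but 16.6% ± 0.154 of FPKM, and it holds 5 of the 6 vitellogenin genes. Chromosome IV carried the largest share of FPKM, at 20.8% ± 0.0888 (SD, n = 4 each), and 26 of the 100 highest protein-coding genes. It holds 3281 of the 19994 protein-coding genes. The 12 protein-coding genes of the mitochondrial genome held 1.002% ± 0.0569 of counts (SD, n = 4). The share of protein-coding genes at 1 FPKM was lowest on chromosome V, with 2403 of 4996 genes, and highest on chromosome III, with 2027 of 2640.

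Tissue markers were read as levels. In RNA from whole animals, fewer cells of a type and less RNA per cell cannot be told apart. The median of a list also depends on the genes picked for it, and the lists were chosen with earlier results of these data known. An order of list medians is therefore not an order of tissues by RNA. Of all protein-coding genes, 61.0% had a mean of at least 1 FPKM, which is the background of the list counts. The lists use a stricter rule, 1 FPKM in every control. The intestine list had the highest median level of the 18 lists, at 54.3 FPKM, which is the percentile 92.0 of all protein-coding genes, and all 15 members were at 1 FPKM or more in every control. The list summed to 3755, 3988, 3486 and 3172 FPKM in controls 1 to 4. Its highest members were the lysozyme gene lys-8 (1189 ± 141 FPKM) and the aspartyl protease gene asp-1 (1169 ± 148 FPKM), while the intestinal transcription factor genes elt-2 and elt-7 had 19.7 ± 1.89 and 30.9 ± 1.26 FPKM (SD, n = 4 each).

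Body-wall muscle followed, with a median member at 30.4 FPKM and all 13 members detected in every control. The sum was 1552, 1499, 1496 and 1532 FPKM in controls 1 to 4, a spread of 1.77% of the mean. Its highest members were pat-10, a troponin C gene (716 ± 22.8 FPKM), and unc-27, a troponin I gene (264 ± 13.1 FPKM). The myosin heavy chain gene unc-54 had 123.2 ± 10.4 FPKM. Of the pharyngeal muscle list, 5 of 6 members were detected in every control, with a median of 8.99 FPKM and tni-4 and tnc-2 at the top (93.0 ± 2.37 and 13.9 ± 2.08 FPKM; SD, n = 4 each).

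Neuronal genes were all detected but lower. The 15 members had a median of 12.9 FPKM and summed to between 825 and 895 FPKM, led by snb-1, which encodes synaptobrevin of synaptic vesicles (386 ± 12.1 FPKM), and the neuropeptide-processing gene egl-21 (126 ± 3.36 FPKM; SD, n = 4 each). Even the markers of the few touch receptor neurons were above 1 FPKM in all controls, 5 of 5, from 1.87 FPKM for mec-18 to 20.7 FPKM for mec-12. Lists of other small tissues were detected in part: 2 of 2 for coelomocytes, 3 of 4 for the excretory canal cell, 2 of 7 for the pharyngeal glands and 2 of 4 for vulva and uterus.

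Hypodermal markers fell on either side of the detection level. The adult cuticle collagen gene col-19 had 67.6, 68.0, 62.2 and 51.9 FPKM in controls 1 to 4, and the hypodermal transcription factor gene elt-3 had 32.7 ± 3.82 FPKM (SD, n = 4). The cuticle collagen gene sqt-3 had 5.33 ± 0.522 FPKM (SD, n = 4), while others were close to 0: dpy-7 averaged 0.0137 FPKM, rol-6 0.0281 FPKM and dpy-13 0.163 FPKM. In all, 6 of 12 members were at 1 FPKM or more in every control. Of the moulting list 3 of 8 were, with nas-37, a protease gene used in ecdysis, the highest at 12.2 ± 1.01 FPKM (SD, n = 4).

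**Figure D3:**
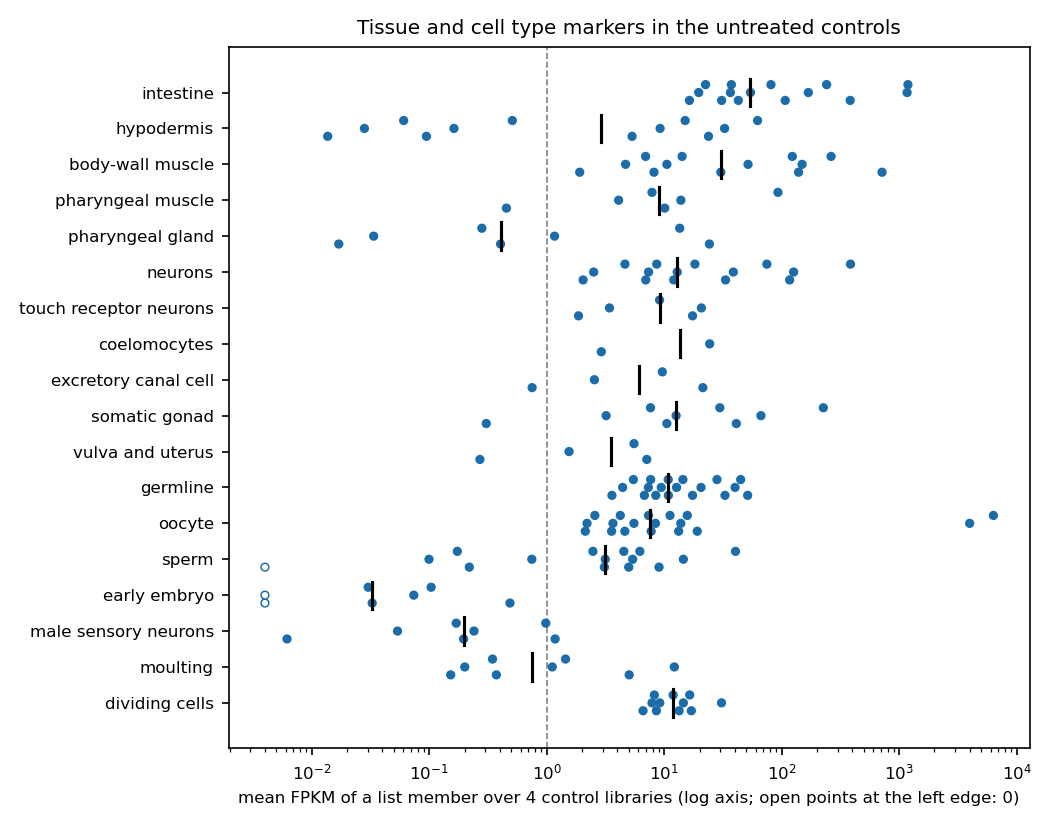
Mean FPKM over the 4 control libraries of each member of 18 marker lists (points) and the median of each list (bars), on a log axis with a dashed line at 1 FPKM and open points at the left edge for members at 0. Intestine and body-wall muscle have the highest medians, germline and dividing-cell markers lie between 3 and 52 FPKM, and early embryo and male markers lie near or below 1 FPKM.

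Transcripts of germline marker genes were detected in these sterile worms. All 19 listed genes were at 1 FPKM or more in every control, with a median member at 10.9 FPKM, the percentile 71.0 of all protein-coding genes. The highest were glh-1, a helicase gene of germ granules (51.4 ± 5.10 FPKM), and csr-1, an Argonaute gene (44.8 ± 1.56 FPKM). The meiotic genes him-3, htp-1 and rec-8 had 17.4 ± 3.56, 12.8 ± 1.92 and 10.9 ± 1.33 FPKM, and the synaptonemal complex gene syp-1 3.59 ± 0.644 FPKM (SD, n = 4 each). The 11 markers of dividing cells were all detected as well, from mcm-5 at 6.61 FPKM to pcn-1, the gene of the replication clamp, at 30.8 ± 4.88 FPKM. Wild-type adults were not analysed here, and whether these transcripts came from remaining germ cells or from somatic tissue was not tested.

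Oocyte markers were split by level. The eggshell genes perm-4 and perm-2, at 6344 ± 223 and 3985 ± 67.7 FPKM, made almost all of the list's sum of 10257 to 10664 FPKM. The other 16 members lay between 2.13 FPKM for egg-2 and 19.1 FPKM for mbk-2, among them the yolk receptor gene rme-2, which had 4.25, 4.59, 4.70 and 4.97 FPKM in controls 1 to 4. Thus perm-2 and perm-4 stood apart from the rest of the list in level.

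Sperm markers were detected for 10 of 15 genes, with a median of 3.15 FPKM. The median member was at the percentile 51.3 of all protein-coding genes. The count is near the 61.0% of all protein-coding genes with a mean of at least 1 FPKM. The highest was ssp-10 at 36.1, 39.1, 40.6 and 46.0 FPKM in controls 1 to 4, followed by msp-31 at 14.6 ± 6.01 FPKM (SD, n = 4), while ssp-9 had 0 counts in all 4. The value of msp-31 is uncertain, because it overlaps aagr-2, which had 55621 counts over the 4 controls against 356 for msp-31, and because msp genes are near-identical copies. None of 7 early embryo markers reached 1 FPKM in every control, and med-1 and tbx-38 had 0 counts in all 4. None of 7 markers of male sensory neurons did either. Of the somatic gonad list, 8 of 9 members were detected, while lag-2 averaged 0.306 FPKM. The list was led by the gap junction gene inx-8 (226 ± 7.19 FPKM) and the filamin gene fln-1 (66.7 ± 1.05 FPKM; SD, n = 4 each).

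Differences between the 4 controls were small for most genes. Spread was measured as the biological coefficient of variation (CV): the SD of CPM over the mean, less the part that read counting alone would give, with CPM scaled by TMM factors. Among 9258 genes with a mean of at least 5 CPM the median was 6.64%, and 431 genes (4.66%) had a biological CV of at least 20%, 91 of at least 30% and 9 of at least 50%. The count of 91 became 147 without control 3. Every pair of controls had a Pearson correlation between 0.984 and 0.985 over log2(FPKM + 1) values, across genes, which are not independent replicates. By level, the median was 9.98% for genes at 5 to 10 CPM, 5.24% at 300 to 1000 CPM and 6.09% above 1000 CPM.

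**Figure D4:**
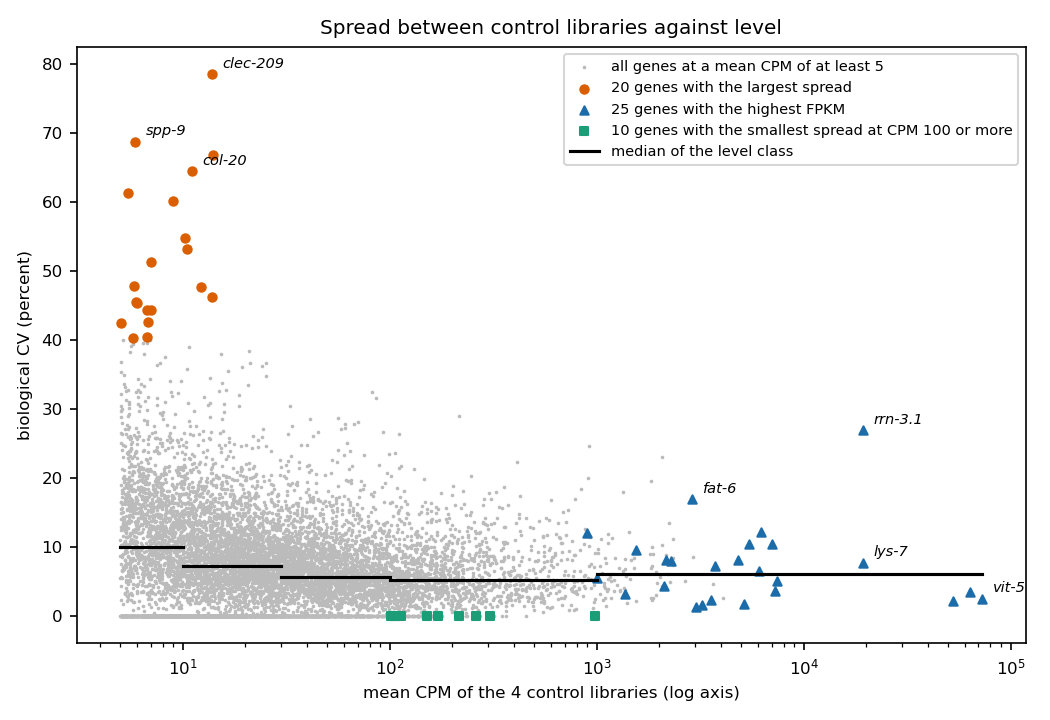
Biological CV between the 4 control libraries (vertical axis, percent) against mean CPM (horizontal log axis) for 9258 genes, with the median of each level class as black bars. The 20 genes with the largest spread lie at 5 to 15 CPM, and of the 25 highest genes rrn-3.1 (26.99%) and fat-6 (16.996%) spread the most.

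The genes with the largest spread were all low, at means of 5.01 to 14.1 CPM. Which genes these are depends strongly on the minimum of 5 CPM, as the closing section on processing describes. The largest spread belonged to the C-type lectin gene clec-209, at 27.8, 9.63, 16.1 and 1.94 CPM in controls 1 to 4 (biological CV 78.6%). The saposin-like gene spp-9 had 1.68, 3.32, 8.10 and 10.5 CPM, and the nematode-specific peptide gene nspc-2 had 24.6, 19.5, 6.65 and 5.55 CPM. These did not share a pattern: control 4 was the lowest in clec-209 and nspc-2 and the highest in spp-9.

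The cuticle collagen gene col-20 (chromosome II, 4869670 to 4870791) had 21.8, 7.53, 7.66 and 7.23 CPM, so that 1 library made its spread. B0507.8 likewise had 23.7 CPM in control 1 against 10.3 to 11.3 CPM in the other 3. In control 2, B0238.13, an annotated pseudogene, had 16.8 CPM against 4.39 to 7.53 CPM elsewhere, and mct-2 had 12.5 CPM against 4.68 to 6.07 CPM. The invertebrate-type lysozyme gene ilys-3 was also highest in control 2, at 8.01, 18.6, 5.63 and 9.88 CPM in controls 1 to 4. The acyl-CoA synthetase gene acs-2, known to rise on fasting, had 15.7, 8.41, 18.6 and 6.14 CPM.

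Among the rest of the 20, those highest in control 4 were msp-81 (4.14, 2.44, 4.87 and 10.3 CPM), the troponin T gene tnt-4 (6.53, 2.98, 4.94 and 9.62 CPM), F32A11.3, F42A10.7, B0205.10 and msp-31. In all 6, control 2 was the lowest library or, for msp-31, level with control 3. C08F11.12, F28H1.4, M02E1.4, ZK355.8 and nspe-1 complete the list, with biological CVs between 42.5% and 54.8%. The last gene named had a biological CV, as a fraction, of 0.4035 and the first one not named 0.4005.

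At the other end, 10 genes at 100 CPM or more were named for the smallest CV. The glutamate dehydrogenase gene gdh-1 had 981, 991, 985 and 984 CPM in controls 1 to 4, a CV of 0.405%, below what read counting alone gives. Next were F57G12.1, cpt-2 (a carnitine palmitoyltransferase gene), let-526 (a subunit of a chromatin remodelling complex), unc-16 (a motor adaptor), paa-1 (the scaffold of protein phosphatase PP2A), par-1 (a polarity kinase), math-33, gei-1 and T01H3.3. All had CVs between 0.490% and 0.923%. All 10 genes had a biological CV of 0, as had 1519 of the 9258 genes at 5 CPM or more. Choosing genes by the smallest CV favours this value.

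Members of several lists had their highest level in the same control, among them germline, translation, tubulin and muscle genes in number 4 and collagens in number 1. Of all 9258 genes, 24.99% were highest in control 4 and 29.9% in control 1, and these shares are the background of the counts that follow. Of the 18 germline markers at 5 CPM or more, 16 were highest in control 4, as were 10 of 11 markers of dividing cells, 12 of 14 of oocytes, 6 of 7 of sperm and 5 of 5 msp genes. Among other lists, control 4 was the highest for 49 of 79 ribosomal protein genes, 5 of 6 translation elongation factors and 8 of 11 tubulins. It was also the highest for 8 of 12 body-wall muscle markers and 3 of 5 pharyngeal muscle markers. Which tissue these transcripts came from was not tested. The summed body-wall muscle markers were highest in control 4 by CPM, but in control 1 by FPKM (1552 against 1532 in control 4). The sperm list and the msp genes share 4 listed genes. In the other direction 25 of 29 col collagens were highest in control 1 and 0 in control 4, and 28 of 39 transthyretin-related genes were highest in control 1. So were 10 of 15 neuronal markers, 17 of 29 FMRFamide-like peptides, 6 of 8 lipid-binding (lbp) genes and 5 of 7 fatty acid and retinol binding genes.

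The sums show the size. Germline markers together had 869, 930, 934 and 1104 CPM in controls 1 to 4, markers of dividing cells 237, 269, 265 and 333 CPM, and msp genes 73.0, 55.9, 76.0 and 126 CPM. The col collagens had 6751, 5511, 5464 and 5288 CPM. Control 4 had the highest sum for the first 3 and control 1 for the collagens. Without control 4, the CV of the summed FPKM dropped to 4.07% for the germline list, against 11.5% with it, to 6.67% for dividing cells, against 14.3%, to 5.997% for sperm, against 20.6%, and to 15.5% for msp genes, against 36.1%. Without control 1, it dropped to 2.64% for col collagens, against 11.9%. Each of these lists had its highest sum in the library left out, so a drop in CV follows largely from that choice.

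The counts with DESeq2 size factors or from FPKM were the same for germline and dividing cells, 16 and 10. With library size alone as scaling, 37.6% of all genes were highest in control 4 and 26.3% in control 1. The counts in control 4 became 18 of 18 for germline, 11 of 11 for dividing cells and 65 of 79 for ribosomal proteins. In control 1 they became 26 of 29 for col collagens, but fell to 7 of 15 for neuronal markers. They also fell there to 15 of 29 for FMRFamide-like peptides and 4 of 7 for fatty acid and retinol binding genes. They stayed at 28 of 39 for transthyretin-related and 6 of 8 for lbp genes. As a measured fact beside these lists, control 4 had the lowest share of ribosomal RNA, 1.60% of counts against 1.97% to 2.81% in the other 3. Its part in these counts was not tested.

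The replicate numbers recur in the treated groups, and the labels do not say whether a shared number means a shared culture or day. Whether they share a pattern was tested in the 12 treated libraries alone, with edgeR's quasi-likelihood F test of the replicate number next to the group (3 degrees of freedom) and Benjamini-Hochberg adjustment, so that no control value entered the test. Of 14081 genes tested, 212 (1.51%) had an adjusted p under 0.05, and 2038 had an unadjusted p under 0.05. Among the 9258 genes at 5 CPM in the controls, 189 (2.04%) were called. Of the 431 genes with a control biological CV of at least 20%, 54 (12.5%) were called, and of the 20 genes with the largest spread 3 were: M02E1.4, F32A11.3 and B0205.10 (adjusted p = 0.00671, 0.0101 and 0.0480 by the edgeR test).

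In the controls the called genes were most often highest in the same number. Of the 189 called genes, 139 (73.5%) were highest in the same replicate number in the controls and in the treated libraries, against 3805 of all 9258 genes (41.1%). Of 85 called genes highest in treated replicate 1, 71 were highest in control 1. The counts were 20 of 40 for replicate 2, 11 of 21 for replicate 3 and 37 of 43 for replicate 4. Across 9258 genes, the deviation of a control from the mean of the controls had a correlation with the mean deviation of the treated libraries of the same number of 0.426, 0.264, 0.185 and 0.442 for numbers 1 to 4. The controls and the treated libraries share no library, and genes are not independent replicates.

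Of the called genes, 7 more are named here, chosen after their values were seen. The beta-tubulin gene tbb-6 had 94.7, 46.2, 95.8 and 108 CPM in controls 1 to 4 and was lowest in replicate 2 in all 4 groups (adjusted p = 2.71e-05, edgeR). The gene acox-3, of the acyl-CoA oxidases of peroxisomal fatty acid breakdown, had 218, 184, 152 and 152 CPM in controls 1 to 4 (adjusted p = 8.57e-05, edgeR). It was highest in replicate 1 in 4 of 4 groups.

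The desaturase gene fat-6 had 3491, 3050, 2612 and 2383 CPM in controls 1 to 4 (adjusted p = 0.00110, edgeR). Replicates 1 to 4 had 3211, 2624, 2169 and 1960 CPM in the curcumin group, 3318, 3237, 2928 and 2649 CPM in the sulforaphane group, and 2200, 2077, 1601 and 1521 CPM in the combination group. So fat-6 was highest in replicate 1 and lowest in replicate 4 in 4 of 4 groups. The palmitoyl-CoA desaturase gene fat-5 had 1049, 835, 773 and 687 CPM in the controls (adjusted p = 0.00158, edgeR), and was highest in replicate 1 in 3 of 4 groups. The glyoxylate cycle gene icl-1 had 1674, 1314, 1100 and 1271 CPM (adjusted p = 0.00278, edgeR), and was highest in replicate 1 in 4 of 4 groups. Of the 7 fatty acid desaturase genes tested, 2 were called, where 1.51% of all tested genes were.

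The genes alg-3 and alg-4 encode Argonautes of spermatogenesis. In controls 1 to 4, alg-3 had 7.50, 5.09, 8.55 and 11.1 CPM and alg-4 had 9.11, 7.12, 10.6 and 13.8 CPM (adjusted p = 0.00315 and 0.00619, edgeR). Both were higher in replicates 3 and 4 than in replicates 1 and 2 in all 4 groups. Of the sperm list 2 of 11 tested genes were called, of the germline list 2 of 19, of the dividing-cell list 0 of 11, of the msp genes 3 of 25, of the col collagens 1 of 59 and of the ribosomal proteins 0 of 80, where 1.51% of all tested genes were called.

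**Figure D5:**
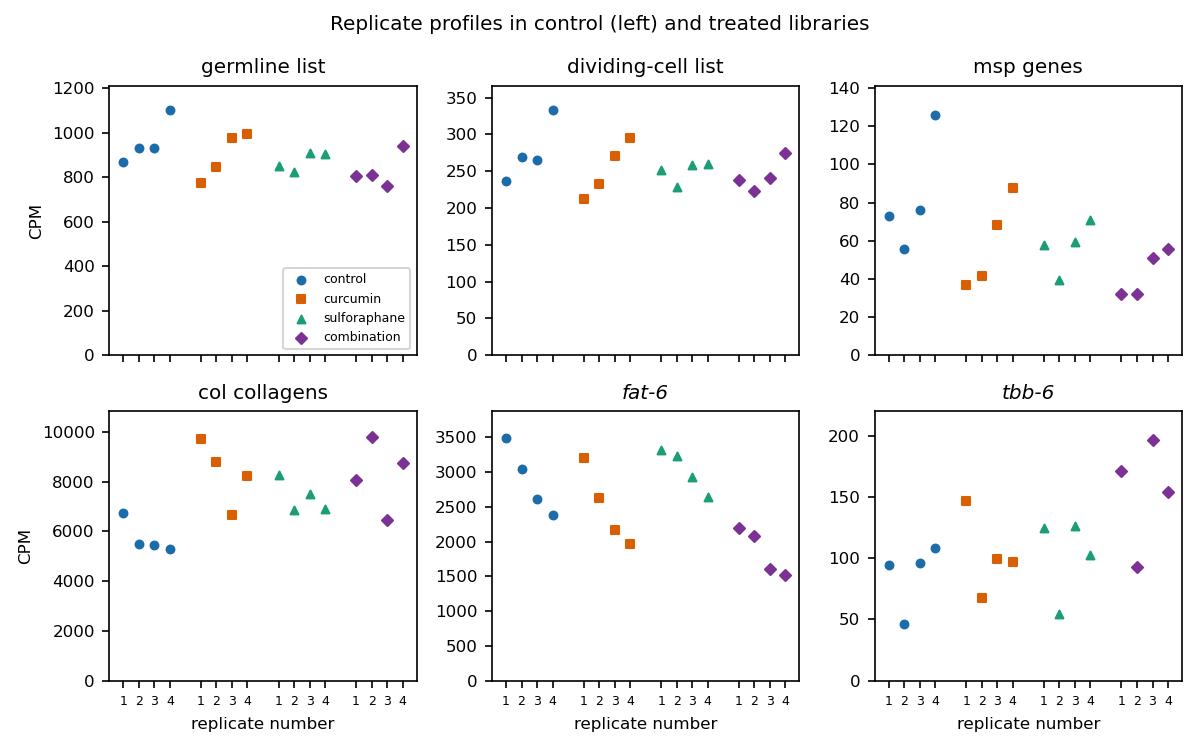
CPM in each replicate, for the controls at the left and then the curcumin, sulforaphane and combination groups, of the summed germline, dividing-cell, msp and col collagen lists and the genes fat-6 and tbb-6. The gene fat-6 is highest in replicate 1 and lowest in replicate 4 in each group, tbb-6 is lowest in replicate 2 in each group, and col collagens have no common order over the groups.

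The summed msp genes had 73.0, 55.9, 76.0 and 126 CPM in controls 1 to 4, 37.1, 41.8, 68.4 and 87.5 CPM in the curcumin group, 57.9, 39.4, 59.3 and 71.1 CPM in the sulforaphane group and 32.1, 31.9, 51.1 and 55.6 CPM in the combination group. Replicate 4 was the highest in 4 of 4 groups. The col collagens, in contrast, were highest in replicate 1 in the control, curcumin and sulforaphane groups and in replicate 2 in the combination group. The count of genes called depended strongly on the setting, from 6 to 878. Without replicate number 1 it was 46, without number 4 it was 53, and without the combination group it was 45, against 212. What the replicate number stands for was not tested.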

How the data were processed

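RNA sequencing of polyA RNA from whole worms was analysed, 4 untreated controls by description and 12 treated libraries in 1 test. The authors deposited raw read counts per gene, and the FPKM values deposited by the authors equalled the count over gene length and 1 depth per library (0.997 to 1.07 times the total count) for 100% of the genes checked. Per the submitters' processing notes the tools were HISAT2 2.0.5, StringTie 1.3.3b, featureCounts 1.5.0-p3 and DESeq2 1.20.0 with build WBcel235. Strandedness is not given in the sources used here, so overlapping genes are uncertain. Of 47029 IDs, 46920 matched RefSeq. Names and families came from the deposited table.

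CPM was computed with TMM factors (edgeR 4.0.16, R 4.3.3) within the controls and within the treated libraries. The biological CV was the square root of the squared CV of CPM less 1 over the mean count, and 0 where negative. The replicate test used filterByExpr and was tested on simulated data. P-values measure only the spread between these libraries. Genes were named by rule: the 25 highest by FPKM of at least 300 bases and the next 5, the 20 with the largest biological CV at 5 CPM, the 10 with the smallest CV at 100 CPM, glp-4, the first 2 and any silent members of each list, and the top of each family. Other list members and the genes of the replicate test were chosen after their values were seen. The lists and the members were chosen with earlier results of these data known. Alternatives used DESeq2 1.42.0 and limma 3.58.1. Intervals for 0 counts cover counting error only.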

Additional observations from a re-analysis of the deposited data

Results flagged for a closer look

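Of 123 control results examined (family shares, list sums and named genes), 6 had 1 library further from the others than Dixon's 95% critical value for 4 samples, which chance passes in about 1 of 20. The measure is the gap to the nearest library over the whole range. The col collagens' share of FPKM was 0.914% in control 1 and 0.754% to 0.768% in the others (0.913). The lipid-binding family lbp held 0.304% in control 1 and 0.279% to 0.282% in the others (0.886). The cytochrome P450 family held 0.169% in control 2 and 0.157% to 0.159% in the others (0.863). The gene col-20 had 21.3 FPKM in control 1 and 7.01 to 7.45 FPKM in the others (0.969). B0507.8 had 17.9 FPKM in control 1 and 7.72 to 8.56 FPKM in the others (0.919). The polarity kinase gene par-1 had 47.1 FPKM in control 4 and 48.2 to 48.3 FPKM in the others (0.927), within a CV of 0.873%. The rate of 1 of 20 is for independent results, while the 123 overlap and some genes among them were chosen by their spread. Of the 6, 3 (col-20, B0507.8 and par-1) are genes named for an extreme spread or an extreme stability. The cause was not tested.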

How the results depend on the processing

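No paired analysis was possible because no difference between groups was estimated, so there was nothing to pair; the replicate number was itself the term tested. A minimum of 10 FPKM left 6242 genes. It left 72 of the 137 list members that were at 1 FPKM or more in every control. By counts the vitellogenins held 19.6% and the ribosomal proteins 4.36%. The count of genes with a biological CV of at least 0.3 was 91, against 770 with a minimum of 1 CPM and 9 with 20 CPM. Leaving out 1 control gave 83 to 147 (147 without control 3). Of the 20 genes with the largest spread, 1 and 0 were still among the 20 at these minimums, and 10 to 15 when 1 control was left out (10 without control 4, 12 without control 2). The 0 follows from the levels, because all 20 genes had means under 20 CPM. The 212 genes called for replicate number became 847 with any read, 371 with the DESeq2 likelihood ratio test, 10 and 6 with limma-trend on log2(FPKM + 1) and log2(FPKM + 0.1), and 878 with all 16 libraries. Without curcumin 84 were called, without sulforaphane 88, without the combination 45, and 46 to 272 when 1 replicate number was left out (46 without number 1, 53 without number 4). The cause of these moves was not tested. Depth limits genes under about 5 CPM.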

Other observations

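Of the genes with the largest spread between controls, 3 are given here with their levels in the treated libraries, chosen after their values were seen. The saposin-like gene spp-9, at 1.68 to 10.5 CPM in the controls, had 1675 to 1837 CPM in the curcumin libraries, 1963 to 2724 CPM in the combination libraries and 2.26 to 12.1 CPM in the sulforaphane libraries. F42A10.7, at 2.98 to 9.17 CPM in the controls, had 69.8 to 82.0 CPM with curcumin, 48.7 to 67.9 CPM with the combination and 2.32 to 3.65 CPM with sulforaphane. M02E1.4, at 3.80 to 10.0 CPM in the controls, had 13.3 to 32.96 CPM with curcumin, 17.8 to 30.8 CPM with the combination and 2.96 to 4.71 CPM with sulforaphane. The controls and the treated libraries were scaled separately, so their CPM are not on a common scale. No test was made of these differences.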
